A study of Mus musculus with 12 samples.

Results

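Genes induced by type I interferon were described in livers of mice given a virus meant to remove p53 acutely, and in their controls. A list of 41 genes was used, made of sensors of viral nucleic acid, transcription factors and signalling proteins, the IFIT, OAS and MX families and other antiviral effectors. A gene counted as measured where a probe set (the group of array probes that reports 1 transcript) named that gene alone, and where several did, the one with the highest average level in the 12 arrays was taken. This gave 38 genes of the 22180 that the arrays measure in this way. Ifi44, Oas1a and Dtx3l have no probe set of their own and were not analysed here.

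The mice were males of a C57BL/6 background, 2 months old, homozygous for the floxed p53 allele Trp53tm1Brn, and received an adenovirus through the tail vein. The control virus expressed green fluorescent protein and the other expressed Cre recombinase, which cuts out the floxed part of the Trp53 gene in the cells it infects. The viruses were injected at equal titre, and 3 days later the mice either ate freely or had food withdrawn for 24 h. The 4 groups are called GFP fed, Cre fed, GFP fasted and Cre fasted, with 3 arrays in each, listed throughout in the order of replicates 1, 2 and 3. Every group therefore carried the floxed allele and a virus. Adeno-Cre and Adeno-GFP livers differ in the protein the virus makes and not in p53 alone. A group without virus was not analysed here, and p53 is removed only from infected cells. In RNA of whole liver, fewer cells of a type and less RNA per cell cannot be told apart.

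Type I interferons are secreted proteins that bind the receptor IFNAR1/IFNAR2. The kinases JAK1 and TYK2 then activate STAT proteins, among them STAT2, which joins IRF9 in the complex ISGF3 and binds a promoter element, the interferon-stimulated response element (ISRE). The induced genes include sensors of viral RNA (RIG-I, MDA5), the factor IRF7 that amplifies interferon production, USP18 that damps the receptor, and effectors such as the IFIT, OAS and MX proteins that block viral RNA or its translation. Hepatocytes respond to interferon, and viral vectors are known to elicit it.

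Levels are the deposited log2 values, on which a difference of 1 is a doubling, and a level of one gene cannot be set against that of another because probes differ. A change is a difference of group means on this scale, and its limma p-value was adjusted over all 22180 genes. A gene passed where the adjusted p was under 0.05. The labels number the replicates without tying each array to an animal, so these p-values speak for the scatter of the 12 arrays, which may be technical in part. Array medians over the genes lay between 6.46 and 6.56, and the correlation of arrays within a group was 0.991 to 0.994. Trp53 has no probe set naming it alone and was not analysed here, so the labels were checked on its targets. Ccng1, a cyclin induced by p53, changed by -0.58 (adjusted p = 0.0135) with Adeno-Cre in fed and by -0.50 (adjusted p = 0.00986) in fasted livers, while Cdkn1a and Mdm2 did not pass (Cdkn1a -0.68 and -0.45, Mdm2 -0.28 and -0.08). Of 10 p53 targets measured, 3 fell and 0 rose with Adeno-Cre in fed livers (Ccng1, Dcxr and Plk2), where 92 of 22180 genes fell. In fasted livers 3 fell and 0 rose (Ccng1, Dcxr and Sesn1), where 107 of 22180 genes fell. With each array left out in turn Plk2 passed in 6 of 12 fits and Sesn1 in 1 of 12, while Dcxr passed in 12 of 12 under either diet and Ccng1 in 11 of 12 (fed) and 12 of 12 (fasted). One array stood apart for the interferon genes: Cre fed replicate 1 was the highest of its group, and of all 12 arrays, in 38 of 38 genes. It was the highest of its group for 33.9% of all genes.

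The interferon genes were highest in Cre fed livers. That group had the highest mean of the 4 groups for 38 of 38 genes, and for 32 of them each Cre fed array lay above all 9 other arrays, which was so for 1.94% of all genes. The exceptions were Sp100, Oas3, Rsad2, Helz2, Lgals3bp and Epsti1. The lowest mean was found in GFP fed livers for 18 genes, in GFP fasted livers for 14 and in Cre fasted livers for 6. The median level of the 38 genes was 7.76, 8.24 and 8.10 in the GFP fed arrays and 9.87, 8.82 and 8.92 in the Cre fed arrays. It was 8.26, 7.85 and 8.24 in the GFP fasted arrays and 8.30, 8.18 and 7.93 in the Cre fasted arrays. The Cre fed arrays therefore did not overlap with any other group on this median, and the other 3 groups overlapped with each other.

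**Figure D1:**
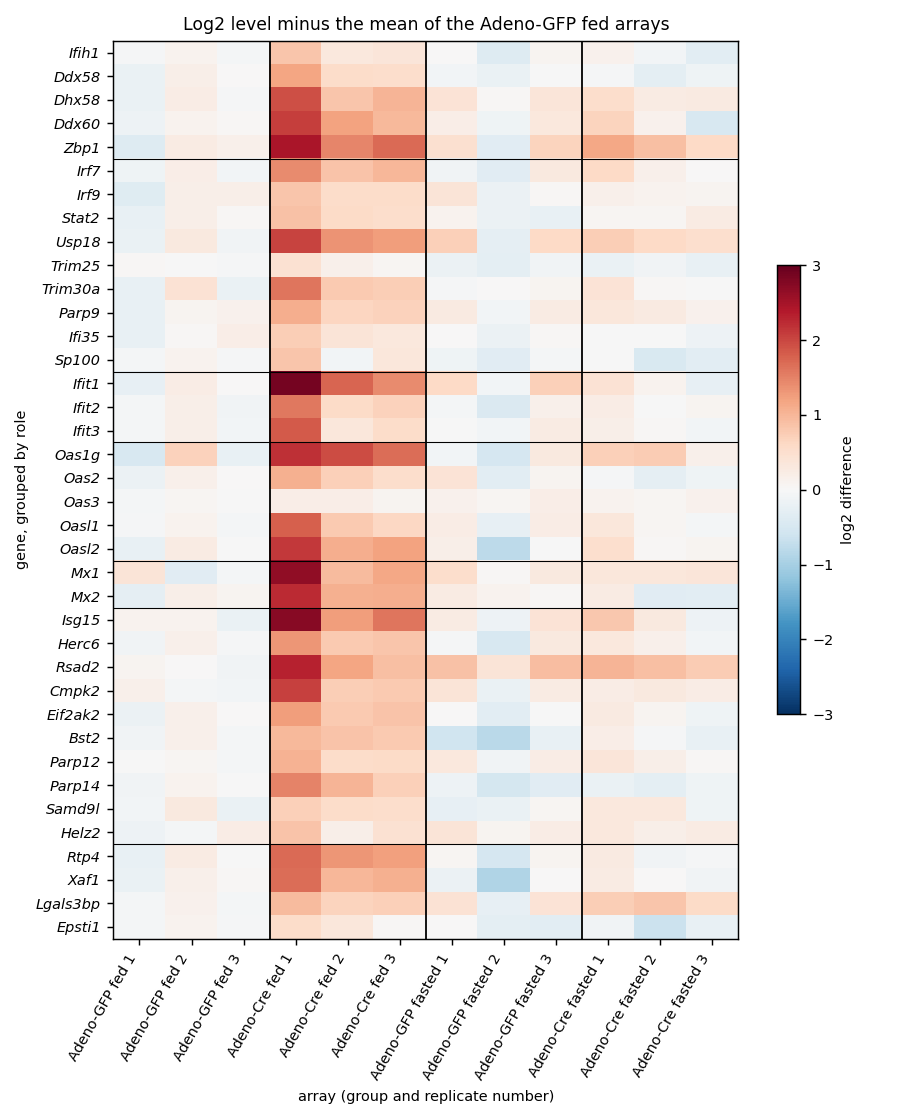
Log2 level of 38 interferon genes (rows, grouped by role) in 12 arrays (columns, by group), as the difference from each gene's mean in the GFP fed arrays, with red higher and blue lower. The 3 Cre fed columns are red throughout most rows and replicate 1 is the darkest, while the fasted columns stay pale.

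Adeno-Cre was first compared with Adeno-GFP in fed livers, which sets the virus meant to remove p53 against the control virus when food is present. Of the 38 genes 24 rose and 0 fell, where 1.08% of all genes rose. All 38 changes were positive, from 0.16 to 2.01 with a median of 0.97, while the median over all genes was -0.02. The arrays of the groups did not overlap, Cre above GFP, for 35 of the 38, which was so for 8.4% of all genes. At least 2-fold differences were found for 18 genes, where 131 of 22180 genes had one in either direction. An unadjusted p under 0.05 was found for 36, where 1239 of 22180 genes had one with a positive sign.

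Fasting was then compared with feeding after Adeno-Cre. Here 17 of the 38 genes fell and 0 rose, where 1.17% of all genes fell. All 38 changes were negative, from -1.91 to -0.06 with a median of -0.89. Every Cre fasted array lay below every Cre fed array for 33 genes, which was so for 9.81% of all genes. This comparison and the previous one share the Cre fed arrays, so their values are given side by side and neither supports the other.

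Promoters of the genes were searched for the core of the ISRE, the element that ISGF3 binds. The sequences are RefSeq's for mouse assembly GRCm38.p6 and run from 250 bases before to 50 after the transcription start. Of the 38 measured genes 29 matched an entry. Rtp4, Mx2, Parp14, Dhx58, Usp18, Mx1, Parp9, Oas2 and Zbp1 had none. The core searched was GAAANNGAAA on both strands, where N is any base. It was present in 13 of the 29 (44.8%), against 3.99% of 27025 genes with an entry. The gamma-activated site, an element of interferon gamma responses, searched as TTCNNNGAA on both strands, was present in 4 of the 29 (13.8%), against 9.55% of genes, and in Bst2 it overlapped a core. A match is a description of letters and does not show binding. The genes were listed as interferon-induced, so the share with a core describes the list and not the changes in these arrays.

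The stretches below hold cores of genes that rose in fed Cre livers, with Ifit3 added as the neighbour of Ifit1 and Oas1a as a relative of Oas1g. They are written 5′ to 3′ on the strand of the gene, all of them lie before the start, and capitals mark a core on either strand or overlapping cores. Their places are chr19:34640724-34640843 on the plus strand (Ifit1), chr19:34583327-34583446 on the plus strand (Ifit3), chr4:156200845-156200964 on the minus strand (Isg15), chr5:120887614-120887733 on the minus strand (Oas1g), chr5:120907526-120907645 on the minus strand (Oas1a), chr12:26456533-26456652 on the minus strand (Rsad2), chr8:71537557-71537676 on the minus strand (Bst2) and chr8:61927967-61928086 on the plus strand (Ddx60).
Ifit1: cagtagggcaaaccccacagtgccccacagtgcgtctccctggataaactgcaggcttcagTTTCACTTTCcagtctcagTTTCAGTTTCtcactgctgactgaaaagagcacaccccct
Ifit3: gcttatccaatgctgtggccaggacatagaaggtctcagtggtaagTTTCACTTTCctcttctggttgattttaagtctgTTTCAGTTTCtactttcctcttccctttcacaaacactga
Isg15: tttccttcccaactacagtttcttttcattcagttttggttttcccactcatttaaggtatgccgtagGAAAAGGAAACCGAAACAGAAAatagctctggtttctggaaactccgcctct
Oas1g: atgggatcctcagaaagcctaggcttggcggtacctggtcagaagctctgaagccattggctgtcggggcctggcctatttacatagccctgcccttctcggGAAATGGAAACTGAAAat
Oas1a: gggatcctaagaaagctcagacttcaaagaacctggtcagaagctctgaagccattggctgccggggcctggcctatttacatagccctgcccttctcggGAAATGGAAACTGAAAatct
Rsad2: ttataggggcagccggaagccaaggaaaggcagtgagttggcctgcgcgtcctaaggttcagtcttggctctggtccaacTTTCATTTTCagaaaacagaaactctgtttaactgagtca
Bst2: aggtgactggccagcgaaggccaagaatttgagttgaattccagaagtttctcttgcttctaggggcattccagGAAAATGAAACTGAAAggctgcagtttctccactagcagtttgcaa
Ddx60: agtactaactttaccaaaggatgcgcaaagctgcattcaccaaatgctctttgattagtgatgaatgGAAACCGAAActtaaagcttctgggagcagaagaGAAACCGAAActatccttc

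Ifit1 and Ifit3 carried 2 separate cores each, both read from the opposite strand. In Isg15 3 cores overlapped between bases -78 and -57 from the start, and in Bst2 2 overlapped between -130 and -115. Oas1g and Oas1a carried the same pair of overlapping cores next to the start, and their windows were 88.8% identical over 294 aligned bases. Of the 13 genes with a core 10 rose in fed Cre livers (median change 0.96), of the 16 with a window but no core 6 rose (median 0.75), and of the 9 without an entry 8 rose (median 1.41). The corresponding falls with fasting after Adeno-Cre numbered 8 of 13, 5 of 16 and 4 of 9.

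**Figure D2:**
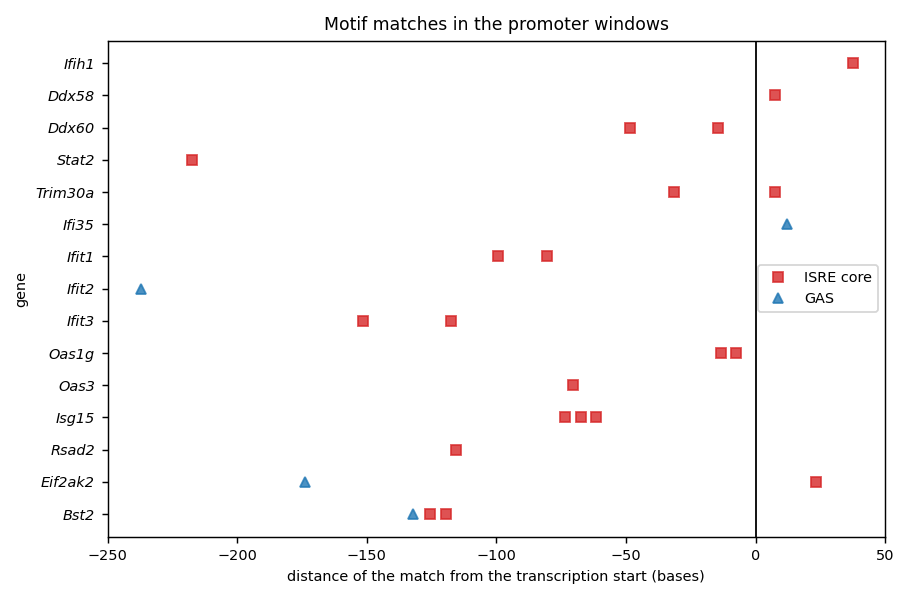
Position of each match to the ISRE core (squares) and the gamma-activated site (triangles) in the promoter windows of the measured genes that hold at least 1, as distance in bases from the transcription start (line at 0). Most ISRE cores lie before the start, the farthest in Stat2 at -222, while those of Ddx58, Ifih1 and Eif2ak2 and 1 of Trim30a lie after it.

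Of the 5 sensors of viral nucleic acid, 4 rose in fed Cre livers and 2 fell with fasting after Adeno-Cre. Over all genes 1.08% rose and 1.17% fell in these comparisons, against which the counts of each role below can be set. Ddx58 encodes RIG-I, the sensor of RNA with a 5′ triphosphate, and read 8.41, 8.78 and 8.62 in GFP fed livers, 9.78, 9.16 and 9.13 in Cre fed, 8.53, 8.40 and 8.59 in GFP fasted and 8.57, 8.32 and 8.48 in Cre fasted. All Cre fed values exceeded the others. Its change was 0.75 (SE 0.16, adjusted p = 0.0386) with Adeno-Cre in fed livers and -0.90 (SE 0.16, adjusted p = 0.0124) with fasting after Adeno-Cre. Dhx58, which encodes LGP2, a helicase that tunes the other sensors, read 6.53, 6.97 and 6.71 in GFP fed livers, 8.67, 7.56 and 7.76 in Cre fed, 7.14, 6.77 and 7.11 in GFP fasted and 7.26, 6.98 and 7.01 in Cre fasted. Cre fed replicate 1 was about 1 unit above the others of its group. The fed change was 1.26 (SE 0.23, adjusted p = 0.0233) and the fasting change after Adeno-Cre was -0.91 (adjusted p = 0.061), which did not pass.

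Ddx60, a helicase that aids RNA sensing, read 7.99, 8.25 and 8.18 in GFP fed livers, 10.21, 9.34 and 9.12 in Cre fed, 8.35, 8.01 and 8.45 in GFP fasted and 8.80, 8.27 and 7.65 in Cre fasted. Its Cre fasted arrays spread widely, with replicate 3 below all GFP arrays. It rose by 1.42 (SE 0.29, adjusted p = 0.0341) in fed livers and its fasting change after Adeno-Cre was -1.32 (SE 0.29, adjusted p = 0.0323). Zbp1, a sensor of Z-form nucleic acid that can trigger cell death, read 7.60, 8.25 and 8.14 in GFP fed livers, 10.44, 9.46 and 9.70 in Cre fed, 8.47, 7.66 and 8.66 in GFP fasted and 9.16, 8.90 and 8.60 in Cre fasted. The Cre fasted arrays lay between the Cre fed and GFP fed arrays. The fed change was 1.87 (SE 0.29, adjusted p = 0.0135), 3.66-fold, and the change in fasted livers was 0.62 (adjusted p = 0.309), which did not pass. Ifih1 encodes MDA5, the sensor of long double-stranded RNA, and read 10.57, 10.70 and 10.55 in GFP fed livers, 11.43, 10.93 and 10.97 in Cre fed, 10.61, 10.21 and 10.69 in GFP fasted and 10.73, 10.53 and 10.29 in Cre fasted. Its groups did not overlap in fed livers, but its change of 0.50 (SE 0.16, adjusted p = 0.177) did not pass.

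Of 9 transcription factors and signalling proteins 5 rose in fed Cre livers and 3 fell with fasting after Adeno-Cre. Irf7, the factor that amplifies interferon production, read 7.54, 7.86 and 7.58 in GFP fed livers, 9.08, 8.51 and 8.65 in Cre fed, 7.55, 7.31 and 7.95 in GFP fasted and 8.25, 7.81 and 7.68 in Cre fasted. The Cre fed arrays stood clear of the rest, and Cre fasted replicate 1 was the nearest. Its changes were 1.09 (SE 0.19, adjusted p = 0.0208) with Adeno-Cre in fed livers and -0.83 (SE 0.19, adjusted p = 0.0415) with fasting after Adeno-Cre. Stat2, a subunit of ISGF3, read 8.87, 9.26 and 9.11 in GFP fed livers, 9.97, 9.66 and 9.61 in Cre fed, 9.18, 8.90 and 8.87 in GFP fasted and 9.13, 9.13 and 9.32 in Cre fasted. Its fasted groups lay within or close to the GFP fed range. It changed by 0.66 (SE 0.13, adjusted p = 0.0284) and -0.55 (SE 0.13, adjusted p = 0.0433), with both past the threshold. Irf9, the DNA-binding subunit of ISGF3, read 7.69, 8.24 and 8.23 in GFP fed livers, 8.88, 8.60 and 8.60 in Cre fed, 8.45, 7.87 and 8.08 in GFP fasted and 8.20, 8.17 and 8.13 in Cre fasted. It was above all other arrays in each Cre fed liver, yet neither 0.64 (adjusted p = 0.0857) in fed livers nor -0.53 (adjusted p = 0.122) with fasting passed.

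Usp18, which removes ISG15 from proteins and damps the interferon receptor, read 8.28, 8.78 and 8.38 in GFP fed livers, 10.50, 9.83 and 9.74 in Cre fed, 9.19, 8.21 and 9.08 in GFP fasted and 9.21, 9.07 and 8.99 in Cre fasted. GFP fasted replicate 2 was lower than the rest of its group and near the GFP fed arrays. The fed change was 1.55 (SE 0.25, adjusted p = 0.0157), 2.92-fold, and the fasting change after Adeno-Cre was -0.94 (adjusted p = 0.0739). Trim30a, a TRIM protein that restrains inflammatory signalling, read 6.49, 7.15 and 6.53 in GFP fed livers, 8.33, 7.50 and 7.47 in Cre fed, 6.69, 6.74 and 6.80 in GFP fasted and 7.13, 6.76 and 6.72 in Cre fasted. GFP fed replicate 2 was the highest GFP array. It rose by 1.05 (SE 0.22, adjusted p = 0.0428), near the threshold. Parp9, which pairs with DTX3L in interferon signalling, read 9.41, 9.72 and 9.77 in GFP fed livers, 10.71, 10.27 and 10.33 in Cre fed, 9.90, 9.54 and 9.88 in GFP fasted and 9.97, 9.91 and 9.75 in Cre fasted, and rose by 0.81 (SE 0.14, adjusted p = 0.0187). A probe set that names both Dtx3l and Parp9 gave a smaller fed change of 0.32 (adjusted p = 0.381 among all probe sets).

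Ifi35, an interferon-induced leucine zipper protein, read 7.59, 7.83 and 8.0 in GFP fed livers, 8.55, 8.19 and 8.11 in Cre fed, 7.82, 7.62 and 7.83 in GFP fasted and 7.79, 7.79 and 7.64 in Cre fasted. It did not pass in fed livers (0.48, adjusted p = 0.103) and changed by -0.54 (SE 0.13, adjusted p = 0.0457) with fasting after Adeno-Cre. A second probe set of Ifi35 gave -0.02 and -0.36 in these comparisons, so its values depend on the probe set chosen. The ubiquitin ligase gene Trim25, which acts on RIG-I, and Sp100, of nuclear bodies, did not pass in either comparison. Their fed changes were 0.22 (adjusted p = 0.389) and 0.36 (adjusted p = 0.469). The 4 probe sets naming Sp100 alone had fed changes from -0.08 to 0.37.

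The IFIT proteins bind viral RNA that lacks the caps of host messengers, and their genes lie side by side. Ifit1 (probe set 17358832) read 7.86, 8.32 and 8.12 in GFP fed livers, 10.96, 9.85 and 9.51 in Cre fed, 8.70, 8.01 and 8.81 in GFP fasted and 8.52, 8.21 and 7.86 in Cre fasted. Its lowest Cre fed array exceeded the highest array of any other group. The group mean was 10.11 ± 0.76 (SD, n = 3) in Cre fed against 8.10 ± 0.23 in GFP fed livers, a change of 2.01 (SE 0.33, adjusted p = 0.0157), 4.02-fold. With fasting after Adeno-Cre the change was -1.91 (SE 0.33, adjusted p = 0.0106). Ifit3 read 8.11, 8.34 and 8.08 in GFP fed livers, 10.02, 8.51 and 8.72 in Cre fed, 8.17, 8.10 and 8.41 in GFP fasted and 8.35, 8.20 and 8.08 in Cre fasted. Cre fed replicate 1 was far above the other 2, which lay just above the GFP fed range. Its changes of 0.91 (SE 0.29, adjusted p = 0.18) and -0.87 (SE 0.29, adjusted p = 0.15) did not pass, nor did those of Ifit2, at 0.95 (adjusted p = 0.0618) and -0.86 (adjusted p = 0.0698).

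OAS proteins make 2′-5′ oligoadenylate, which activates the nuclease RNase L. Of 5 measured 2 rose in fed Cre livers and 3 fell with fasting after Adeno-Cre. Oas1g (probe set 17452115) read 6.49, 7.67 and 6.75 in GFP fed livers, 9.15, 8.93 and 8.64 in Cre fed, 6.89, 6.47 and 7.26 in GFP fasted and 7.68, 7.72 and 7.13 in Cre fasted. The GFP fed arrays differed among themselves, replicate 2 being the highest, and the Cre fed arrays were close together. Its change was 1.94 (SE 0.29, adjusted p = 0.0116) in fed livers, 3.83-fold, and -1.40 (SE 0.29, adjusted p = 0.0244) with fasting after Adeno-Cre. A probe set naming both Oas1a and Oas1g changed by 1.04 (adjusted p = 0.163) and -1.15 (adjusted p = 0.0791) among all probe sets. How far the probes of Oas1g also read Oas1a was not tested.

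Oasl2, an OAS-like protein, read 7.41, 7.87 and 7.62 in GFP fed livers, 9.75, 8.72 and 8.84 in Cre fed, 7.80, 6.84 and 7.61 in GFP fasted and 8.14, 7.67 and 7.72 in Cre fasted. GFP fasted replicate 2 was its lowest array. It changed by 1.47 (SE 0.28, adjusted p = 0.0273) in fed livers and by -1.26 (SE 0.28, adjusted p = 0.0357) with fasting after Adeno-Cre. Oas2 read 6.96, 7.30 and 7.15 in GFP fed livers, 8.20, 7.85 and 7.67 in Cre fed, 7.54, 6.81 and 7.21 in GFP fasted and 7.10, 6.87 and 7.01 in Cre fasted. It missed the threshold in fed livers (0.77, adjusted p = 0.0559) and changed by -0.91 (SE 0.18, adjusted p = 0.0187) with fasting after Adeno-Cre. Oasl1 (1.07, adjusted p = 0.0593) and Oas3 (0.16, adjusted p = 0.372) did not pass in fed livers. The mean of Oas3 in GFP fed livers, 6.38, was under the lowest array median over genes, so its level is not shown to exceed the background.

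MX proteins are GTPases that can trap viral nucleocapsids, and the RNA of both genes rose in fed Cre livers. Whether these mice make working MX proteins was not tested. Mx1 read 5.98, 5.26 and 5.53 in GFP fed livers, 8.25, 6.53 and 6.75 in Cre fed, 6.11, 5.63 and 5.88 in GFP fasted and 5.93, 5.94 and 5.95 in Cre fasted. Its GFP fed values lay under the array medians, and Cre fed replicate 1 was more than 1 unit above the other 2. The fed change was 1.59 (SE 0.35, adjusted p = 0.0441) and the fasting change after Adeno-Cre was -1.24 (adjusted p = 0.0872). Whether the GFP level exceeds background is not known, which leaves the fold uncertain. Mx2 read 7.06, 7.51 and 7.40 in GFP fed livers, 9.56, 8.40 and 8.41 in Cre fed, 7.57, 7.44 and 7.35 in GFP fasted and 7.57, 6.99 and 7.01 in Cre fasted. The Cre fed arrays lay from 8.40 to 9.56 and the others from 6.99 to 7.57. Its changes were 1.47 (SE 0.27, adjusted p = 0.0222) and -1.60 (SE 0.27, adjusted p = 0.00927).

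Among 10 other antiviral effectors 7 rose in fed Cre livers and 5 fell with fasting after Adeno-Cre. Isg15, a ubiquitin-like protein attached to new proteins, read 7.49, 7.50 and 7.19 in GFP fed livers, 10.13, 8.65 and 9.00 in Cre fed, 7.65, 7.24 and 7.80 in GFP fasted and 8.20, 7.69 and 7.23 in Cre fasted. Cre fed replicate 1 again stood above the rest. It changed by 1.87 (SE 0.33, adjusted p = 0.0192), 3.65-fold, and by -1.56 (SE 0.33, adjusted p = 0.0275). Herc6, the mouse ligase that attaches ISG15, read 9.57, 9.82 and 9.64 in GFP fed livers, 11.00, 10.47 and 10.51 in Cre fed, 9.65, 9.20 and 9.98 in GFP fasted and 10.00, 9.82 and 9.60 in Cre fasted. The groups other than Cre fed overlapped. It changed by 0.98 (SE 0.19, adjusted p = 0.0273) and -0.85 (SE 0.19, adjusted p = 0.0338). Rsad2 encodes viperin, which makes a chain-terminating nucleotide, and read 7.15, 7.06 and 6.96 in GFP fed livers, 9.38, 8.24 and 7.96 in Cre fed, 7.95, 7.45 and 7.98 in GFP fasted and 8.07, 7.97 and 7.82 in Cre fasted. Here every fasted array exceeded the GFP fed arrays, and the lowest Cre fed array lay within the range of the fasted ones. The fed change was 1.47 (SE 0.28, adjusted p = 0.0273), and the fasting change was 0.73 (adjusted p = 0.202) after Adeno-GFP and -0.57 (adjusted p = 0.344) after Adeno-Cre, neither past the threshold.

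Eif2ak2 encodes PKR, the kinase that halts translation on double-stranded RNA, and read 8.92, 9.25 and 9.11 in GFP fed livers, 10.34, 9.88 and 9.94 in Cre fed, 9.11, 8.78 and 9.09 in GFP fasted and 9.36, 9.18 and 8.96 in Cre fasted. Each Cre fed array exceeded the highest of the other 9. It changed by 0.96 (SE 0.15, adjusted p = 0.0128) and by -0.88 (SE 0.15, adjusted p = 0.00904). Bst2 encodes tetherin, which holds budding virus on the cell surface, and read 9.38, 9.62 and 9.43 in GFP fed livers, 10.45, 10.34 and 10.26 in Cre fed, 8.87, 8.67 and 9.25 in GFP fasted and 9.68, 9.45 and 9.26 in Cre fasted. Unlike most of the list, it was lower in each GFP fasted array than in each GFP fed array. Its changes with Adeno-Cre were 0.87 (SE 0.14, adjusted p = 0.0164) in fed and 0.53 (adjusted p = 0.0751) in fasted livers, and with fasting they were -0.55 (adjusted p = 0.0629) after Adeno-GFP and -0.89 (SE 0.14, adjusted p = 0.00812) after Adeno-Cre.

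Parp14, an ADP-ribosyltransferase, read 9.18, 9.40 and 9.28 in GFP fed livers, 10.77, 10.31 and 10.00 in Cre fed, 9.13, 8.75 and 8.95 in GFP fasted and 9.08, 8.98 and 9.15 in Cre fasted. Every fasted array was below every GFP fed array, and the Cre fed arrays were above them all. The fed change was 1.07 (SE 0.16, adjusted p = 0.0122) and the fasting change after Adeno-Cre was -1.29 (SE 0.16, adjusted p = 0.00256). Parp12, of the same family, read 9.33, 9.39 and 9.28 in GFP fed livers, 10.38, 9.88 and 9.92 in Cre fed, 9.65, 9.23 and 9.56 in GFP fasted and 9.69, 9.52 and 9.37 in Cre fasted. Replicate 1 was again the highest Cre fed array. It rose by 0.72 (SE 0.14, adjusted p = 0.03) in fed livers and did not pass with fasting (-0.53, adjusted p = 0.0733). Cmpk2, the neighbour of Rsad2 that supplies its nucleotide, had a fed change of 1.19 (adjusted p = 0.0598). Samd9l (0.59, adjusted p = 0.0856) and Helz2 (0.50, adjusted p = 0.165) did not pass either.

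Of 4 other interferon-induced genes 3 rose in fed Cre livers and 2 fell with fasting after Adeno-Cre. Rtp4, an interferon-induced chaperone of receptors, read 8.76, 9.23 and 8.98 in GFP fed livers, 10.68, 10.31 and 10.22 in Cre fed, 9.05, 8.48 and 9.08 in GFP fasted and 9.25, 8.88 and 8.95 in Cre fasted. Its lowest Cre fed array, 10.22, was nearly 1 unit above the highest of the others, 9.25. It changed by 1.41 (SE 0.18, adjusted p = 0.00706) in fed livers, 2.66-fold, and by -1.38 (SE 0.18, adjusted p = 0.00327) with fasting after Adeno-Cre. Xaf1, which promotes cell death, read 8.86, 9.21 and 9.09 in GFP fed livers, 10.72, 10.05 and 10.11 in Cre fed, 8.88, 8.16 and 9.07 in GFP fasted and 9.30, 9.06 and 8.96 in Cre fasted. GFP fasted replicate 2 was the lowest array by far. It changed by 1.24 (SE 0.23, adjusted p = 0.0222) and -1.19 (SE 0.23, adjusted p = 0.0176). Lgals3bp, a secreted glycoprotein, read 10.62, 10.80 and 10.62 in GFP fed livers, 11.62, 11.34 and 11.40 in Cre fed, 11.12, 10.44 and 11.08 in GFP fasted and 11.41, 11.51 and 11.25 in Cre fasted. Its Cre fasted arrays overlapped with its Cre fed arrays, as in few other genes of the list. The changes with Adeno-Cre were 0.77 (SE 0.16, adjusted p = 0.0345) in fed and 0.51 (adjusted p = 0.126) in fasted livers, and fasting after Adeno-Cre gave -0.06 (adjusted p = 0.891). Epsti1 did not pass in fed livers (0.31, adjusted p = 0.458).

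**Figure D3:**
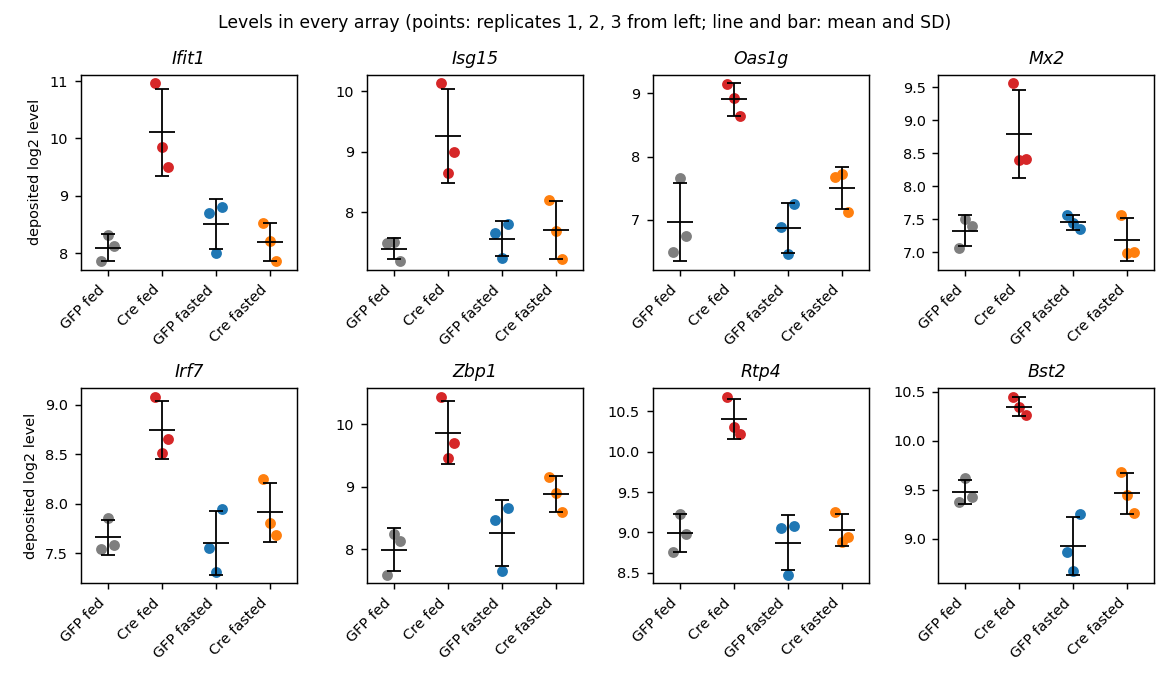
Deposited log2 level of 8 interferon genes in every array, by group, with replicates 1, 2 and 3 from left and the group mean with its SD (n = 3) in black. In each panel the Cre fed points sit above the points of the other 3 groups, for Rtp4 at 10.22 to 10.68 against 8.48 to 9.25.

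In fasted livers no interferon gene passed between Adeno-Cre and Adeno-GFP. Of the 38 genes 0 rose and 0 fell, where 2.75% of all genes passed in either direction, and 3 had an unadjusted p under 0.05, where 16.7% of all genes did. Changes ranged from -0.31 to 0.64 with a median of 0.11, and 28 were positive. The widest differences were of Oas1g, with 0.64 (SE 0.29, adjusted p = 0.284), and Zbp1, with 0.62 (SE 0.29, adjusted p = 0.309). For Ifit1 the change was -0.31 (SE 0.33, adjusted p = 0.674), with a 95% confidence interval of -1.02 to 0.39, next to the fed change of 2.01 (1.30 to 2.72). For Isg15 the interval was -0.57 to 0.85 in fasted and 1.16 to 2.58 in fed livers, and for Rtp4 -0.24 to 0.55 and 1.02 to 1.81. The lowest adjusted p, 0.0751, was that of Bst2.

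**Figure D4:**
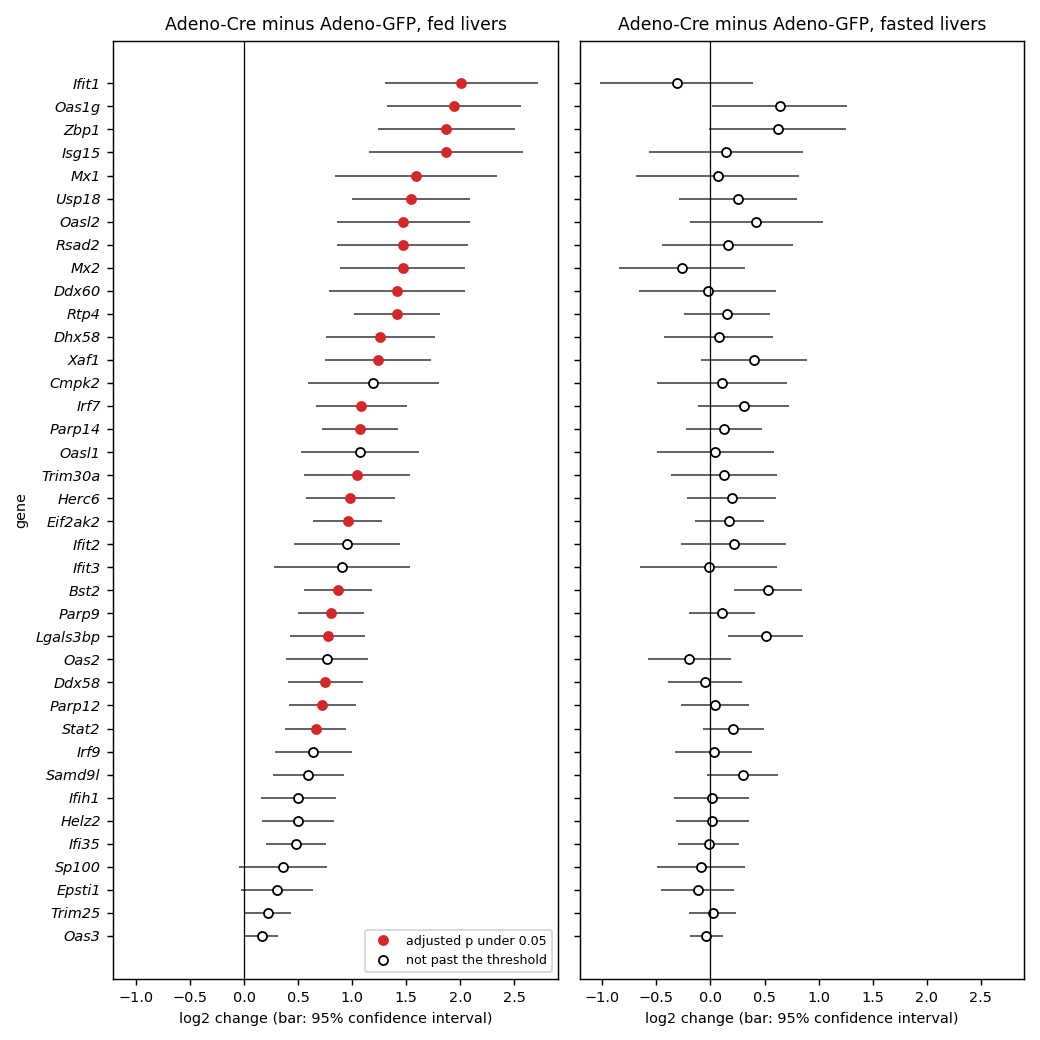
Log2 change with Adeno-Cre against Adeno-GFP in fed (left) and fasted (right) livers for each of 38 genes, ordered by the fed change, with 95% confidence intervals and filled points where the adjusted p was under 0.05. In fed livers 24 points are filled and all lie right of 0, and in fasted livers 0 are filled and the points lie from -0.31 to 0.64.

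With fasting after Adeno-GFP 20 of the changes were positive and 18 negative. After Adeno-GFP 0 of 38 passed, where 3.07% of all genes did, and 2 had an unadjusted p under 0.05, where 16.7% of all genes did. Changes ran from -0.55 (Bst2) to 0.73 (Rsad2) with a median of 0.04. Whether the effect of Adeno-Cre differed between diets was tested as an interaction. No gene of the list passed (adjusted p from 0.404 to 0.814), where 0.00451% of all genes, 1 in all, passed. All 38 interaction estimates were negative, from -2.32 (Ifit1) to -0.20, with a median of -0.82. An unadjusted p under 0.05 was found for 31 of them, where 3.81% of all genes had one with a negative sign. The interaction uses the same 4 groups as the comparisons above and is not independent of them.

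The lists that surround these genes in the pathway were measured on the same arrays. Of 19 measured interferon ligands 0 passed in any comparison, and 8 had a mean above the median over all genes. Ifnb1, the first interferon made by most infected cells, ranged from 3.54 to 4.09 over the 12 arrays, and Ifng, the type II interferon, from 5.60 to 6.12. These levels lie under the array medians and are not shown to be above background. Of 18 receptors and signalling genes 0 passed in any comparison. The receptor genes Ifnar1 and Ifnar2 had fed changes of 0.01 (adjusted p = 0.979) and -0.01 (adjusted p = 0.976), the transcription factor Irf1 0.11 (adjusted p = 0.703) and the inhibitor Socs1 0.03 (adjusted p = 0.974).

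In fed Cre livers 239 of 22180 genes rose, among them 1 of 19 genes of nucleic acid sensing upstream of interferon. This was Nlrc5, a regulator of antigen presentation that interferon induces, at 0.57 (SE 0.10, adjusted p = 0.0213), and it passed in 7 of 12 fits with an array left out (highest adjusted p of 0.0961). Tlr3, the endosomal sensor of double-stranded RNA, did not pass, with 0.71 (adjusted p = 0.0869). Neither Mavs, the adaptor of RIG-I, with -0.14 (adjusted p = 0.626), nor Irf3, the first factor to act on sensing, with -0.02 (adjusted p = 0.958), passed. Of other interferon-stimulated effectors 40 were measured. In fed Cre livers 7 rose, Adar (0.59), Trim21 (0.64), Trim34a (1.10), Trim30d (1.16), Tor1aip1 (0.48), Phf11d (1.39) and Ms4a4c (1.31), and 0 fell, with a median of 0.53. This count was 0 without GFP fed replicate 1 or 3, 1 without Cre fed replicate 1, 3 without Cre fed replicate 3, and 4 without replicate 2 of GFP fed, Cre fed or Cre fasted livers. With fasting after Adeno-Cre 10 fell and 0 rose, with a median of -0.45, where 259 of 22180 genes fell. Oas1b, of the OAS1 copies, fell by 1.38 there (adjusted p = 0.0215), and Trim34a by 1.24. In fasted livers 0 of the 40 passed with Adeno-Cre. Of 11 genes that lean on interferon gamma 1 rose in fed Cre livers (Ubd, a ubiquitin-like protein), by 0.88 (adjusted p = 0.0273), and passed in 8 of 12 fits with an array left out. Cxcl9, a chemokine of T cells, fell with fasting after Adeno-GFP by 0.95 (adjusted p = 0.0265) and after Adeno-Cre by 1.08 (adjusted p = 0.0173), and passed in 10 and 8 of 12 such fits.

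Markers of liver cell types were read to see which moved with the fed change. Hepatocyte markers, whose array medians stayed between 12.89 and 13.07, had a median fed change of -0.06 with 0 of 13 past the threshold. Their fed changes were negative for 11 of 13, and the Cre arrays all lay below the GFP arrays for 5 (2549 of 22180 genes). In fasted livers these counts were 12 of 13 and 6 (2417 of 22180 genes), with a median of -0.07 and 0 past the threshold. Markers of Kupffer cells (0 of 13, median 0.00), of monocytes and neutrophils (0 of 13, median 0.00), of plasmacytoid dendritic cells (0 of 9, median -0.02), of B cells (0 of 7, median -0.07) and of bile duct cells (0 of 5, median -0.11) did not pass in fed livers. Among the monocyte markers, however, Ly6c2 was 5.04 ± 0.15 (SD, n = 3) in GFP fed and 5.85 ± 0.46 in Cre fed livers, a change of 0.81 (SE 0.18, adjusted p = 0.0527), and Plac8 changed by 0.67 (SE 0.20, adjusted p = 0.156). Neither passed. The GFP and Cre fed arrays did not overlap, Cre above GFP, for these 2 of the 13 markers, which was so for 8.4% of all genes. Of the 13 fed changes 6 were positive and 7 negative. None of 12 sinusoidal endothelium markers passed, at a median of -0.30. Of 12 stellate cell markers, at a median of -0.21, Rgs5 fell, where 92 of 22180 genes fell. All 12 endothelial and 11 of the 12 stellate changes were negative. In each list 6 were lower at an unadjusted p under 0.05, where 1503 of 22180 genes were. Every Cre fed array lay below every GFP fed array for 7 endothelial and 6 stellate markers, and for 2549 of 22180 genes. In fasted livers all 12 stellate changes with Adeno-Cre were also negative (median -0.24), 7 of them at an unadjusted p under 0.05. Endothelial changes there were negative for 8 of 12 (median -0.055, 0 at that p), and Kupffer cell changes for 13 of 13 (median -0.36, 1 at that p). Over all genes 1931 of 22180 were lower at that p there. None of these markers passed in fasted livers. Of 17 T and NK cell markers, Gzma, a granule protease, rose by 0.71 in fed (adjusted p = 0.0307) and by 0.65 in fasted livers (adjusted p = 0.0295). Over all 22180 genes 239 rose in fed and 502 in fasted livers. The list median was 0.12 in fed livers, with 14 of 17 changes positive. In fasted livers it was -0.05, with 11 of 17 changes negative. With each array left out in turn Gzma passed in 7 of 12 fits in fed livers (highest adjusted p of 0.132) and 6 of 12 in fasted livers (0.11), and Rgs5 in 7 of 12 (0.125). Cre fed replicate 1 was also the highest of its group for 12 of 12 endothelial and 37 of 40 other effector genes, and for 6 of 13 hepatocyte markers. With fasting after Adeno-Cre, 3 of 12 stellate markers fell, where 259 of 22180 genes did. After Adeno-GFP 2 of 12 fell, where 415 of 22180 genes did. Ptprc, the leukocyte gene CD45 that stood on the plasmacytoid dendritic cell list, fell with fasting after Adeno-Cre by 0.56 (adjusted p = 0.0211) and passed in 8 of 12 fits with an array left out. In the same comparison 12 of 13 Kupffer cell markers had a negative change (median -0.25, 0 past the threshold, 4 lower at an unadjusted p under 0.05), as had 14 of 17 T and NK cell markers (median -0.06, 0 past the threshold). Ly6c2 and Plac8 changed by -0.60 (adjusted p = 0.122) and -0.69 (adjusted p = 0.103) there. Most of their list went the other way, with 10 of 13 monocyte and neutrophil markers positive (median 0.11, 0 past the threshold). The part that other cell types or Cre fed replicate 1 have in these results was not tested beyond the counts without that array given next.

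The count of genes past the threshold moved with single arrays. Leaving out Cre fed replicate 1 left 12 genes and a median fed change of 0.76 (0.97 with all arrays), and leaving out Cre fed replicate 3 left 10 genes with a median of 1.09. Without GFP fed replicate 1 or GFP fed replicate 3 only Rtp4 passed, with medians of 0.93 and 0.96. The count over all genes moved too: 239 rose with all arrays, 83 and 74 without Cre fed replicates 1 and 3, and 37 and 25 without GFP fed replicates 1 and 3. Rtp4 was also the one gene that passed in fed livers without each array in turn (highest adjusted p of 0.0406). In each of these fits all 38 fed changes stayed positive. For fasting after Adeno-Cre, 11, 6 and 10 genes passed without Cre fasted replicates 1, 2 and 3 and 7 without Cre fed replicate 1, where the median was -0.61. Over all genes 259 fell with all arrays, 109, 125 and 294 without Cre fasted replicates 1, 2 and 3, and 106 without Cre fed replicate 1. For this change Ifit1, Mx2, Eif2ak2, Bst2, Parp14 and Rtp4 passed without each array in turn. In fasted livers the median Adeno-Cre change was -0.04 without GFP fasted replicate 2, which was the lowest array of its group in 33 of 38 genes.

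**Figure D5:**
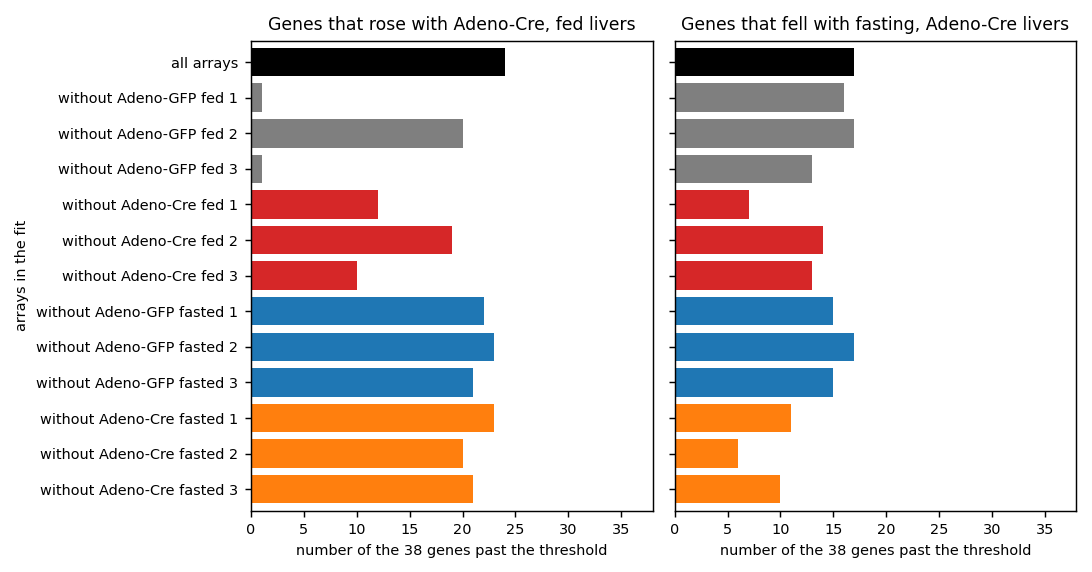
Number of the 38 interferon genes past the threshold with all arrays (black) and with each array left out (coloured by group), for the rise with Adeno-Cre in fed livers (left) and the fall with fasting after Adeno-Cre (right). The left bars fall from 24 to 1 without GFP fed replicate 1 or 3, and the right bars from 17 to 6 without Cre fasted replicate 2.

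The spread between arrays of a group differed by group. The median SD over the 38 genes was 0.18 in GFP fed, 0.36 in Cre fed, 0.25 in GFP fasted and 0.17 in Cre fasted livers, where the medians over all genes lay between 0.11 and 0.12. The Cre fed group had the largest SD of the 4 for 24 of the 38 genes. Its replicate 1 exceeded the mean of the other 2 arrays by a median of 0.58 over the genes, from 0.06 to 1.61.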

How the data were processed

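Total RNA of liver (200 ng, integrity number over 7 per the labels) was labelled and hybridised to 12 Affymetrix arrays. The authors deposited log2 levels per probe set, which the submitters' processing notes ascribe to RMA. For its software, annotation and genome build, nothing is given in the sources used here. Such values have background removed, and RMA makes the arrays' distributions equal, so that a shift shared by all genes would not show. Detection calls were not used here.

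Of 41345 probe sets, 23521 were paired with a single gene in the platform table, which gave 22180 genes. A model with 4 group means was fitted to all arrays with limma 3.58.1 under R 4.3.3 (eBayes, constant prior). Each of 5 contrasts was adjusted by Benjamini-Hochberg over the 22180 genes. The script was tested on simulated data. Any listed gene could be named. From other lists these were genes past the threshold, a few with the smallest p in fed livers, and a few regulators.

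The alternatives left out dim genes, repeated quantile normalization, added a replicate block or fitted the compared groups alone. Others used a trended, robust prior, averaged probe sets per gene, fitted and adjusted over every probe set, or omitted each array in turn. The genes, lists and tests were chosen with earlier results of these data known.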

Additional observations from a re-analysis of the deposited data

How the results depend on the processing

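The count of interferon genes past the threshold depended on the setting more than the direction did: no change of sign occurred among called genes under any alternative. In fed livers 24 rose. The count was 30 without dim genes, 10 with only the groups compared in the fit, and 5 with fit and adjustment over all probe sets. It was 1 to 23 with each array left out. Over all genes 239 rose in the main fit and 353 of 11090 without dim genes. With only the groups compared 121 rose, and with all probe sets 54. With fasting after Adeno-Cre 17 fell. The count was 27 without dim genes, 7 with only the groups compared, 7 with all probe sets, and 6 to 17 with each array left out. Over all genes 259 fell in the main fit and 453 of 11090 without dim genes. With only the groups compared 105 fell, and with all probe sets 106. The counts of 0 became 1 for Adeno-Cre in fasted livers without dim genes and with the trended and robust prior (0 to 1 with each array left out, 1 without Cre fasted replicate 3 or GFP fasted replicate 3), each time Bst2. After Adeno-GFP they became 1 without dim genes and with that prior (Bst2, lower) and with only the groups compared (Rsad2, higher). It was 0 to 1 with each array left out, with Bst2 lower without GFP fasted replicate 3 and Rsad2 higher without Cre fed replicate 1. The interaction count was 0 in every alternative, with 22 to 32 genes at an unadjusted p under 0.05.

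Replicate numbers did not pair the samples: deviations of same-numbered arrays correlated at -0.091 to 0.147, and 2 of 18 pairs exceeded 0.1. With the replicate block 22 interferon genes rose in fed livers, 18 fell with fasting after Adeno-Cre and 0 passed elsewhere. Over all genes 176 rose and 251 fell in these comparisons. The number of arrays limits the precision.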
